A study of Mus musculus with 24 samples.

Results

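The genes described are 59 genes of the cell division cycle in wild-type mouse embryonic fibroblasts: 30 that serve DNA replication in S phase and 29 that serve the entry into and passage through mitosis (G2/M). They were taken by symbol from a fixed list, out of 47480 genes in the count table and 14772 that passed the filter on low counts. The list was chosen with earlier results of these data known, so shares set against all genes are descriptions and not tests. All 59 members passed that filter, and the lowest count of any member in any library was 37, in E2f2. mRNA was sequenced in 24 libraries, 3 for each of the 8 combinations of siRNA (siCTRL, siCop1), compound (DMSO, KL001) and Dexa (absent, present). Every group is wild type, every group received an siRNA, and every group received either the solvent DMSO or KL001, a compound known to stabilise cryptochromes. Cop1 is the substrate receptor of a cullin ubiquitin ligase. The sources used here give no doses, times or siRNA sequences and no full name for Dexa, nor do they state whether the 3 libraries of a group came from separate cultures. The p-values therefore measure only the spread between these libraries, which may be technical.

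Before S phase, the origin recognition complex, Cdc6 and Cdt1 load the Mcm2 to Mcm7 ring onto DNA, and Cdc45, the GINS complex and Mcm10 turn it into an active helicase. Polymerase alpha with primase, the clamp Pcna, its loader and the enzymes Fen1 and Lig1 then build the new strands from nucleotides that Rrm1, Rrm2, Tyms and Tk1 supply. Many of these genes are controlled by E2F factors, which bind short GC-rich sites in their promoters. Genes of G2/M follow later in the cycle, and many of them carry a CHR element, the binding motif of the MuvB complex, together with CCAAT boxes. Fibroblasts in culture express both programmes mainly while they divide, so in bulk RNA the level of these genes depends on how many cells are cycling as well as on the level per cell.

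The promoters of the members differ by class, and 3 windows of each class are shown because they hold the most matches of their class's motif in the 250 bases before the start, among the members named by rule. Windows from RefSeq (GRCm38.p6) run from 250 bases before to 50 after an annotated start. They were found for 48 of the 59 members, 5 of which had several. E2F sites were searched with the motif TTCGCGC, with the motif TTGGCGC, with the motif TTCCCGC and with the motif TTGCCGC. CHR elements were searched with the motif TTTGAA and with the motif TTCGAA, and CCAAT boxes by that name's letters. Both strands were read, and overlapping matches were allowed. An E2F site stood in 17 of 26 S-phase genes (65.4%) and 3 of 22 G2/M genes (13.6%), against 10.9% of all 27025 genes with a window. A CHR element stood in 6 of 26 S-phase genes (23.1%) and 16 of 22 G2/M genes (72.7%), against 21.7% of all genes. A CCAAT box stood in 65.4% of S-phase and 77.3% of G2/M genes, against 41.1% of all genes. The 250 bases before the start are given for these genes, read 5′ to 3′ in the direction of the gene, with E2F sites in capitals in the S-phase genes.
Mcm6, chr1:128359706-128359955, - strand: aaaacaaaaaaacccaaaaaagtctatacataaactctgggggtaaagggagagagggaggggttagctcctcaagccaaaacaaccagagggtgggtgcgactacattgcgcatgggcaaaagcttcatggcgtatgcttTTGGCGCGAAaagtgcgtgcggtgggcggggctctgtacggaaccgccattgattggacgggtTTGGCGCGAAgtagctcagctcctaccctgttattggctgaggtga
Mcm5, chr8:75109259-75109508, + strand: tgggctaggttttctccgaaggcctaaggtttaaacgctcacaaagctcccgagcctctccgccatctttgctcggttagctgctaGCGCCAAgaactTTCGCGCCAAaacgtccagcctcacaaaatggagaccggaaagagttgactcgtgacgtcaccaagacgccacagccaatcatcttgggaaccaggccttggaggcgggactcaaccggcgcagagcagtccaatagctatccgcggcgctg
Cdc6, chr11:98907901-98908150, + strand: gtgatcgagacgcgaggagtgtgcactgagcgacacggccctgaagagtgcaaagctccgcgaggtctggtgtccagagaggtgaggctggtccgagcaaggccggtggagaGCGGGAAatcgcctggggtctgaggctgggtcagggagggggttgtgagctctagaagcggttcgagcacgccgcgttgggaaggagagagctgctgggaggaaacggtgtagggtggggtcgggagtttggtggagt
In the G2/M genes Top2a, Cdk1 and Mki67, capitals mark CHR elements.
Top2a, chr11:99024190-99024439, - strand: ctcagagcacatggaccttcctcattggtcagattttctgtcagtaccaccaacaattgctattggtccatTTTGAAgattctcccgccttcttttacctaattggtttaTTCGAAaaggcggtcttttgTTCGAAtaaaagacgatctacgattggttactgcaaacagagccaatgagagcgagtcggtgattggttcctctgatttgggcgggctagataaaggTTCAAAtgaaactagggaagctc
Cdk1, chr10:69352913-69353162, - strand: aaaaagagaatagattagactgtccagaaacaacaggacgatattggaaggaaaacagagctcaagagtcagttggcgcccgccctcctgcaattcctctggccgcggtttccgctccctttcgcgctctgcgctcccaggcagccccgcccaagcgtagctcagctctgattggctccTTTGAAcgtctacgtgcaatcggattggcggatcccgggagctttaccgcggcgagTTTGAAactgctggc
Mki67, chr7:135716380-135716629, - strand: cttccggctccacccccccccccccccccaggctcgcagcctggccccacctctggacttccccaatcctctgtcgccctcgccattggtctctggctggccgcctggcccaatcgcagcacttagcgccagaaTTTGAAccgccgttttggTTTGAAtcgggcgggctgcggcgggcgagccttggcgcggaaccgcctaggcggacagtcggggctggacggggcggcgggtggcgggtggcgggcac
Cdc6 holds 1 match in these bases, as do E2f8, Orc1, Rrm2 and Uhrf1, and was taken by alphabet. Over the full window Cdt1 and Lig1 hold 2, which lie after the start. In Mcm6 the 4 matches before the start merge into 2 stretches, because a match on one strand overlaps a match on the other, and Mcm5 holds 3 matches in 2 stretches. Top2a, which encodes the topoisomerase that untangles chromosomes, has 4 CHR elements and 6 CCAAT boxes in these bases. Cdk1 and Mki67 hold 2 CHR elements and 3 CCAAT boxes each. Both also hold E2F sites, 2 in Cdk1 and 1 in Mki67, which are left in lower case here. A match describes letters only and does not show that a factor binds.

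**Figure D1:**
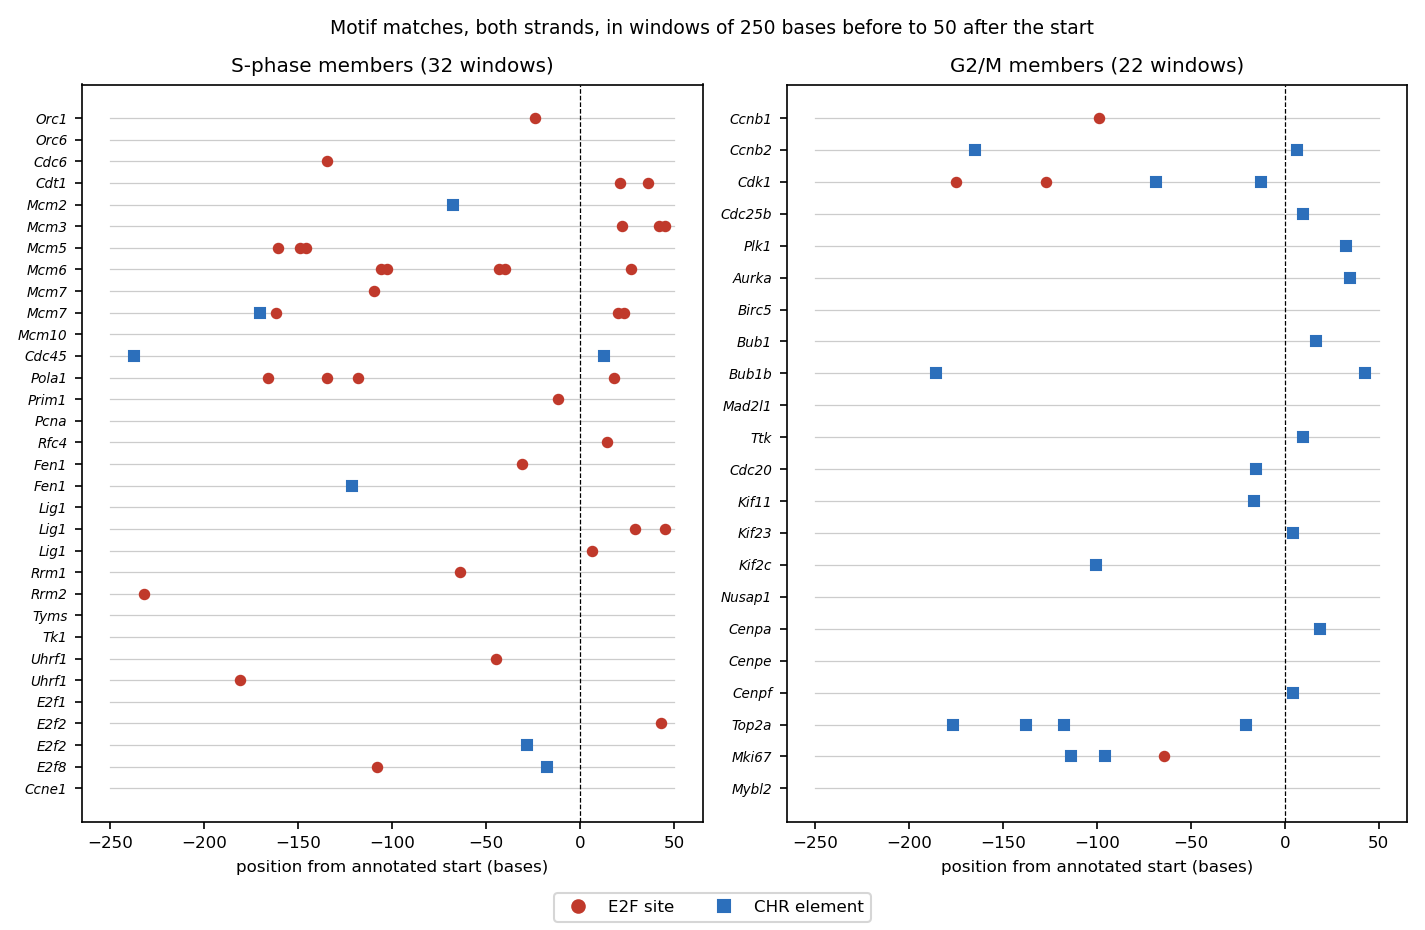
Position of each E2F site (circles) and CHR element (squares) in the promoter windows of the S-phase (left, 32 windows) and G2/M members (right, 22 windows), in bases from the annotated start (dashed line). Circles fill the left panel, where 17 of 26 genes hold an E2F site, and squares the right panel, where 16 of 22 genes hold a CHR element.

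Library totals ran from 21409988 to 27875023 counts. Cop1, which the table lists as Rfwd2, stood at 25 to 29.7 CPM (counts scaled to the library total) in the 12 siCTRL libraries and at 4.33 to 5.79 CPM in the 12 siCop1 libraries; the ranges do not overlap. The summed level of 8 fibroblast markers was 35019 to 50770 CPM, with all 8 detected in every library, although Dcn was low at 1.55 to 4.58 CPM. Markers of other cells were low and uneven. The sum of 10 heart muscle markers ran from 6.62 to 110 CPM in siCTRL libraries and from 2.81 to 5.4 CPM in siCop1 libraries, and Myh6 had counts in 9 of the 24. Summed squamous epithelial markers ran from 8.24 to 86.9 CPM, other epithelial markers from 21.2 to 46.5, macrophage markers from 4.69 to 18.6 and endothelial markers from 0.729 to 3.32. In bulk RNA, fewer cells of a type and less RNA per cell cannot be told apart.

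KL001 raised the genes of DNA replication in siCTRL cells without Dexa. Of the 30 S-phase members, 16 rose and 0 fell, where 3.22% of all genes tested rose and 3.51% fell (edgeR's quasi-likelihood test, p-values adjusted by Benjamini-Hochberg over all 14772 genes, threshold 0.05). The median log2 change over the 30 was 0.17, a rise of 12.7%, while the median over all genes was -0.003. For 22 of the 30, all 3 KL001 libraries lay above all 3 DMSO libraries, against 8.9% of all genes. The exception in sign was Ccne2, one of the E-type cyclins that start S phase, with a log2 change of -0.08 (SE 0.079, adjusted p = 0.671).

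All 6 subunits of the Mcm2 to Mcm7 ring rose, by 0.16 to 0.23 on the log2 scale. Mcm5 stood at 91, 93.1 and 91.9 CPM in the DMSO libraries and at 107, 114 and 103 CPM with KL001. Every KL001 library lay above every DMSO library (log2 change 0.23, SE 0.041, adjusted p = 0.000547). Mcm6 stood at 86.6, 92.9 and 90.1 CPM in DMSO and at 102, 103 and 105 CPM with KL001, with no overlap and a log2 change of 0.20 (SE 0.035, adjusted p = 0.000314). Mcm2 changed by 0.16 on the log2 scale (SE 0.031, adjusted p = 0.00105), from 129, 133 and 132 CPM to 143, 148 and 149 CPM.

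Among the factors that load and fire the ring, 4 of 8 rose. Cdt1, which brings the ring to the origin, went from 45.3, 46.2 and 48.3 CPM to 53.9, 57.9 and 52.3 CPM, without overlap and with a log2 change of 0.23 (adjusted p = 0.00122). Mcm10 changed by 0.22 (adjusted p = 0.0154), and Orc6 and Gins2 also passed. Cdc6 had a similar log2 change of 0.23 with wider spread (SE 0.090) and did not pass (adjusted p = 0.132). Of the strand-building genes, Pcna rose from 48.2, 47.7 and 49.1 CPM to 53.2, 56.8 and 57.9 CPM (log2 change 0.21, SE 0.051, adjusted p = 0.00814), and Lig1, the ligase that seals the lagging strand, passed too. Rrm1 and Rrm2, the subunits of ribonucleotide reductase, rose by 8.3% and 10.3%. Uhrf1, which carries DNA methylation through replication, had the smallest adjusted p of all members. It went from 55.8, 57.8 and 56.3 CPM to 69, 67.5 and 65.3 CPM (log2 change 0.25, SE 0.040, adjusted p = 0.000121). Of the G1/S regulators E2f8 passed (0.24, adjusted p = 0.0454). E2f1 (log2 change 0.12, adjusted p = 0.101) and Ccne1 (0.16, adjusted p = 0.0879) did not pass. Calls were repeated in 12 alternatives (another scaling, filter, tool or model, or 1 of the 6 libraries left out). The E2f8 call was lost in 8 of 12 and the Gins2 call in 9 of 12. For both, DESeq2 and a block for the replicate number were among them. The Rrm1 call was lost in 7 of 12.

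The G2/M members lay higher on median too, but few passed. Their median log2 change was 0.09, a difference of 6.48%, and 2 of 29 rose: Plk1, a kinase of mitotic entry and spindle assembly, and Cdc25b, the phosphatase that switches Cdk1 on. Plk1 stood at 52.2, 53.5 and 49.9 CPM in DMSO and at 57.2, 60.4 and 57.5 CPM with KL001, without overlap (log2 change 0.17, SE 0.044, adjusted p = 0.0138). Cdc25b stood at 65.4, 65.8 and 66 CPM and at 72.7, 72.9 and 74.2 CPM (log2 change 0.16, SE 0.043, adjusted p = 0.0244). For Ccnb1, the cyclin partner of Cdk1, the log2 change was -0.00 (SE 0.062). Top2a had 0.08, Mki67, a marker of dividing cells, 0.04 (SE 0.080), and Wee1, the kinase that holds Cdk1 inactive, -0.11. None of these 4 passed. For 10 of the 29 G2/M members, all 3 KL001 libraries lay above all 3 DMSO libraries, against 8.9% of all genes. For 1 member, Wee1, all 3 lay below.

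The counts of genes that passed moved with the fit. When only the 6 libraries compared were fitted, 2 of the 16 S-phase genes (Mcm5 and Uhrf1) and 0 G2/M genes passed, and without siCTRL KL001 replicate 3 the S-phase count was 10. The G2/M count of 2 became 1 without siCTRL DMSO replicate 1, siCTRL DMSO replicate 2 or siCTRL KL001 replicate 3 and 0 without siCTRL DMSO replicate 3, but 8 with an offset for gene length and GC content. The summed fibroblast markers moved the other way, from 48045 to 50770 CPM in DMSO to 40880 to 44887 CPM with KL001, and summed squamous markers went from 12.8 to 15.3 CPM down to 8.24 to 11.3 CPM. Heart muscle markers overlapped, at 25.7 to 74.1 and 7.88 to 104 CPM. The part of these markers in the result was not tested.

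**Figure D2:**
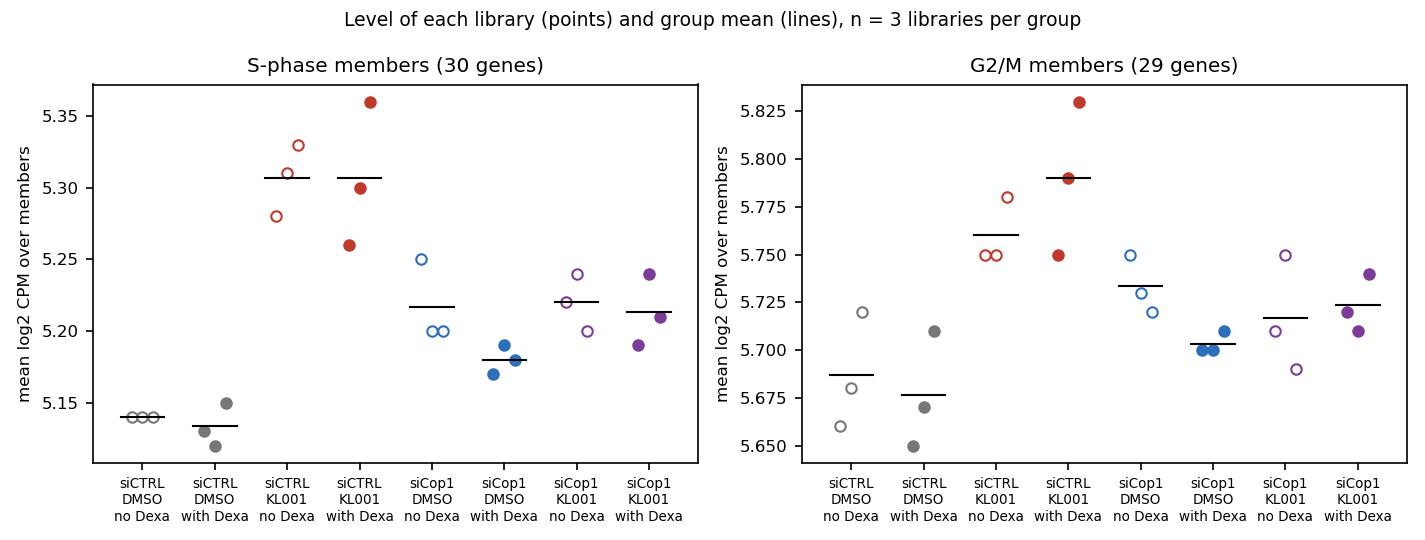
Mean log2 CPM over the 30 S-phase members (left) and the 29 G2/M members (right) in each library (points; open without Dexa, filled with Dexa), with group means as lines and a vertical axis that does not start at 0. In the S-phase panel the 6 siCTRL KL001 libraries lie between 5.26 and 5.36, the 6 siCTRL DMSO libraries between 5.12 and 5.15 and the 12 siCop1 libraries between 5.17 and 5.25.

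The same comparison in the presence of Dexa uses 6 other libraries. There, 18 of 30 S-phase members rose and 0 fell, with a background of 4.98% of all genes higher and 5.58% lower, and the median log2 change was again 0.17. All 6 ring subunits rose, by 0.17 to 0.24. Of the S-phase genes raised by KL001, 13 were shared between the settings, which is 81.2% of the 16 without Dexa and 72.2% of the 18 with Dexa. They are the 6 ring subunits, Cdt1, Mcm10, Pcna, Lig1, Rrm1, Rrm2 and Uhrf1. Mcm10 had the largest change among the S-phase genes that passed, from 17.9, 18.7 and 19 CPM to 22.2, 24.2 and 24.4 CPM, without overlap (log2 change 0.35, SE 0.059, adjusted p = 0.00018). Cdc6 passed here, going from 7.9, 9.25 and 9.17 CPM to 10.3, 11.1 and 11.4 CPM (log2 change 0.32, SE 0.094, adjusted p = 0.0255). Ccne2 again lay slightly below, at -0.02 (SE 0.073).

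With Dexa, 8 of 29 G2/M members rose and 0 fell, with a median log2 change of 0.13. Cenpe, a kinesin that moves chromosomes to the spindle equator, went from 43.7, 49.1 and 47.1 CPM to 57.8, 57.2 and 55 CPM, with every KL001 library above every DMSO library (log2 change 0.28, SE 0.066, adjusted p = 0.00564). The spindle checkpoint kinase Bub1 rose from 38.3, 41.5 and 40.2 CPM to 46.5, 45.6 and 47.4 CPM (log2 change 0.22, SE 0.057, adjusted p = 0.0109). Top2a changed by 0.18 (adjusted p = 0.00405), and Foxm1, a transcription factor of the G2/M genes, by 0.14 (adjusted p = 0.0146). Cdc25b passed again (adjusted p = 0.0438), a call lost in 9 of 12 alternatives, among them the replicate block and DESeq2, and Plk1 did not pass with Dexa (log2 change 0.11, adjusted p = 0.12). Without siCTRL KL001 replicate 3 the counts fell to 11 S-phase and 3 G2/M genes, and the G2/M count was 2 without siCTRL DMSO replicate 1 and 4 without siCTRL KL001 replicate 2. Fitted on these 6 libraries alone, 15 S-phase and 5 G2/M genes passed, while the length and GC offset gave 14 G2/M genes. Summed fibroblast markers were 46631 to 47124 CPM with DMSO and 39924 to 41752 CPM with KL001, and heart muscle markers were 6.62 to 110 and 7.41 to 31 CPM; their part was not tested.

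The windows with E2F sites were also counted by response to KL001 in siCTRL cells. Without Dexa, 10 of the 14 S-phase genes with a window that rose held such a site, against 7 of the 12 that did not pass. With Dexa the numbers were 11 of 17 and 6 of 9.

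In siCop1 cells, KL001 changed 0 of 30 S-phase and 0 of 29 G2/M members, without Dexa and with Dexa, by edgeR and by DESeq2. The background was 1.77% of all genes higher and 2.32% lower without Dexa, and 2.5% and 2.97% with Dexa. Without Dexa, at an unadjusted p below 0.05, 3 S-phase and 1 G2/M genes lay higher, and 1 and 4 lower, against 6.97% and 7.83% of all genes. With Dexa 4 S-phase and 1 G2/M genes lay higher and 0 lower, against 7.51% and 8.85%. Without Dexa all 3 KL001 libraries lay above all 3 DMSO libraries for 3 of 30 S-phase members and below them for 2, against 11.3% and 11.5% of all genes. With Dexa they lay above for 12 of 30 and below for 0, against 12.7% and 12.4%. Among these 12 were 4 of the 6 ring subunits, whose log2 changes were all positive, from 0.04 (Mcm5) to 0.10 (Mcm3), and did not pass. The median log2 changes were 0.00 (S phase) and -0.01 (G2/M) without Dexa and 0.04 and 0.02 with Dexa. Mcm5 stood at 88.7, 84.1 and 85.9 CPM with DMSO and 86.5, 85.5 and 86.6 CPM with KL001, groups that overlap fully. Uhrf1 stood at 66.1, 68.3 and 67.7 CPM with DMSO and at 70.6, 68.4 and 68.4 CPM with KL001. Summed fibroblast markers moved here as well, from 42271 to 43671 CPM down to 36098 to 37331 CPM without Dexa. With Dexa, a fit on the 6 libraries alone called 4 S-phase genes higher (Pola1, Lig1, Mcm3 and Mcm4), and the length and GC offset called 2 (Lig1 and Mcm3).

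**Figure D3:**
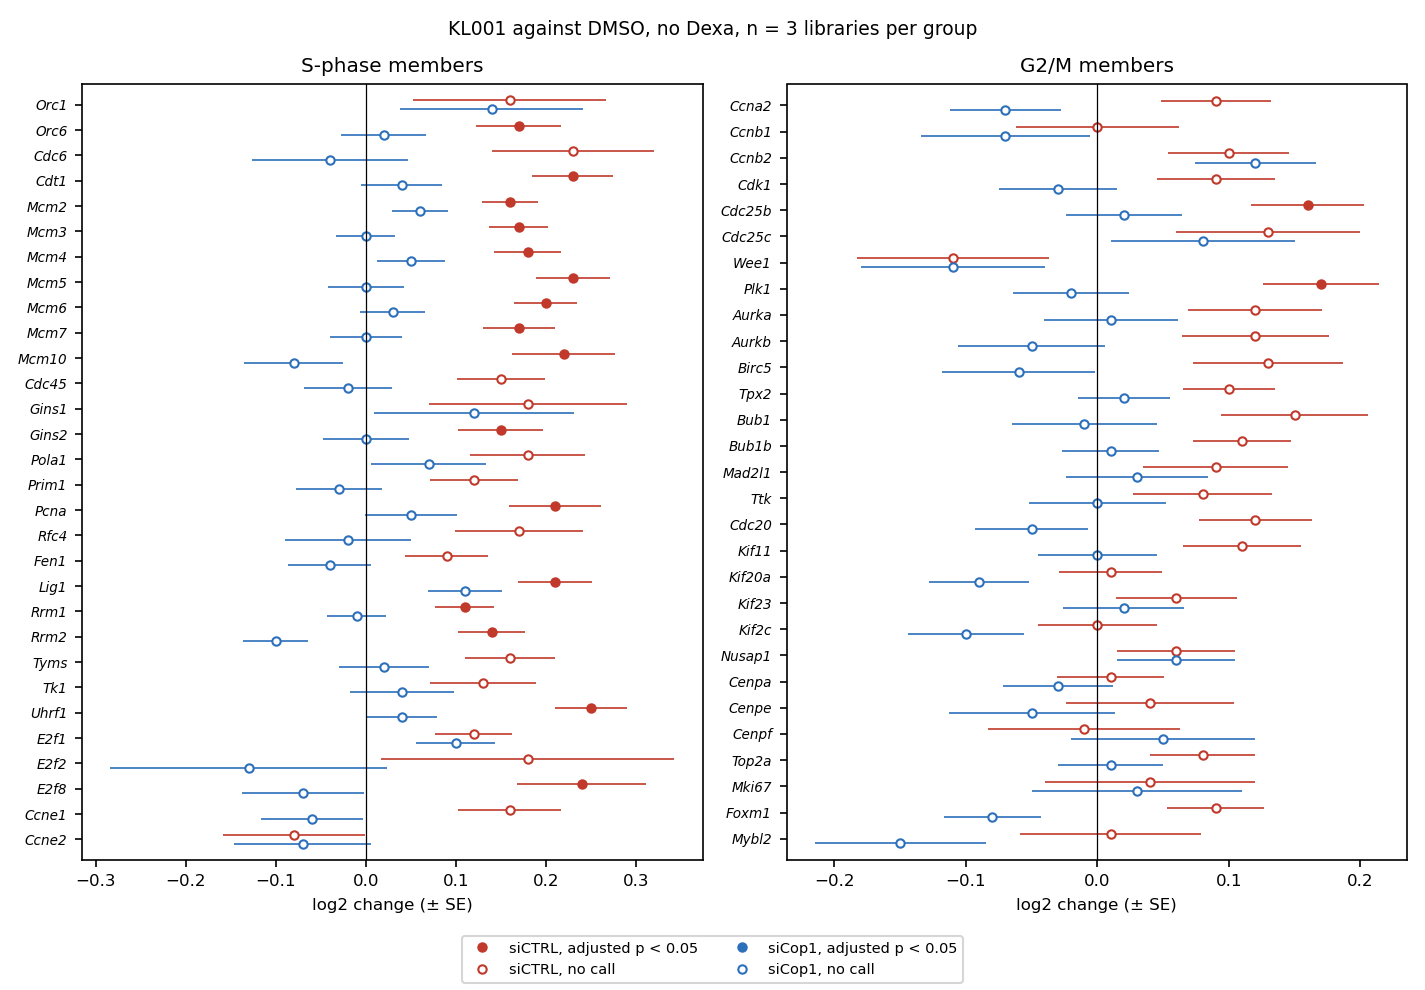
Log2 change (± SE) of each S-phase (left) and G2/M member (right) with KL001 against DMSO, no Dexa, in siCTRL (red) and siCop1 (blue) cells; filled points passed the adjusted p threshold. In siCTRL cells 16 S-phase and 2 G2/M points are filled, and in siCop1 cells 0 are.

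The difference between the KL001 responses of siCop1 and siCTRL cells was tested directly as an interaction. By edgeR 0 members passed, with or without Dexa, where 0% of all genes passed without Dexa and 0.0677% with Dexa. Of the S-phase terms, 29 of 30 were negative without Dexa and 30 of 30 with Dexa, with medians of -0.16 and -0.13 against 0.003 and 0.000 for all genes. At an unadjusted p below 0.05, 20 S-phase terms were negative and 0 positive without Dexa, and 12 and 0 with Dexa, against 3.68% and 3.51% of all genes with such a negative term and 2.97% and 3.42% with a positive one. In G2/M, 27 of 29 and 26 of 29 terms were negative, with a median of -0.09 in both settings and 7 at an unadjusted p below 0.05 in each. The smallest adjusted p belonged to Rrm2 without Dexa (-0.24, SE 0.052, adjusted p = 0.106) and Mcm10 with Dexa (-0.37, SE 0.083, adjusted p = 0.0891). Rrm2 passed without Dexa in DESeq2 (adjusted p = 0.0439) and, with Mcm5, under the length and GC offset. With Dexa, Mcm10 and Cenpe passed without the filter on low counts and under that offset, which also called Foxm1. Each interaction draws on all 4 groups of its Dexa setting, so its terms and the simple effects rest on the same libraries.

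siCop1 itself, in DMSO without Dexa, moved members in both directions. Of the S-phase members 7 rose and 1 fell, and of the G2/M members 5 rose and 1 fell, where 12.8% of all genes rose and 16.6% fell. The S-phase median log2 change was 0.03. The siCTRL DMSO libraries are the ones that KL001 was compared with in siCTRL cells, so the 2 comparisons share them. Rrm2, the regulated subunit of ribonucleotide reductase, stood at 59.3, 60.5 and 55.8 CPM with siCTRL and at 75.8, 77.9 and 75.8 CPM with siCop1. The groups lie far apart, with a log2 change of 0.39 (SE 0.037, adjusted p = 1.62e-09). E2f8, a repressor among the E2F factors, rose from 10.9, 14.1 and 12.2 CPM to 16.7, 15.9 and 16.5 CPM (log2 change 0.41, SE 0.071, adjusted p = 4.16e-05). Uhrf1 changed by 0.25 (adjusted p = 1.2e-05), Cdc6 by 0.25 (adjusted p = 0.037) and E2f2, the least abundant member in reads, by 0.42 with an SE of 0.159 (adjusted p = 0.0456). The E2f2 call was lost in 8 of 12 alternatives, among them DESeq2 and the replicate block. Mcm4 fell: 154, 168 and 169 CPM became 140, 137 and 138 CPM, a log2 change of -0.24 (SE 0.038, adjusted p = 1.11e-05). The other 5 ring subunits did not pass, with log2 changes from -0.09 (Mcm5) to 0.05 (Mcm3).

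Among G2/M members, Mybl2, the B-Myb factor of the MuvB complex, rose from 10.1, 10.8 and 11.4 CPM to 13.7, 13.1 and 12.7 CPM (log2 change 0.30, SE 0.067, adjusted p = 0.000974). Bub1 rose from 41.5, 39.5 and 44.3 CPM to 51.1, 48.3 and 47.8 CPM (log2 change 0.23, SE 0.056, adjusted p = 0.00178). In both genes every siCop1 library lay above every siCTRL library. Ttk, Kif2c and Foxm1 rose by 0.14 to 0.16, and the centromeric histone Cenpa fell by 0.11 on the log2 scale (adjusted p = 0.041), a call lost in 9 of 12 alternatives. The count of 6 G2/M genes became 3 without siCop1 DMSO replicate 1 or siCop1 DMSO replicate 2, and 3 without the filter on low counts. Heart muscle markers summed to 25.7 to 74.1 CPM with siCTRL and 2.94 to 5.4 CPM with siCop1, fibroblast markers to 48045 to 50770 and 42271 to 43671 CPM, macrophage markers to 5.89 to 7.51 and 7.56 to 12.6 CPM, and endothelial markers to 2.42 to 3.32 and 1.27 to 1.57 CPM; their part was not tested.

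With Dexa, in 6 other libraries, siCop1 in DMSO raised 8 and lowered 3 S-phase members and raised 6 and lowered 3 G2/M members, against a background of 14.4% higher and 16.7% lower. All 7 S-phase and all 5 G2/M genes that had risen without Dexa rose here too, which is 87.5% of the 8 and 83.3% of the 6. Among these risers the Prim1 and Ttk calls were each lost in 8 of 12 alternatives, the E2f8 call in 7 and the E2f2 call in 5. In each case DESeq2 was among them. Mcm4 and Cenpa also fell (Cenpa by 0.20, a call lost in 0 of 12 alternatives). Orc1, a subunit of the origin recognition complex, was the additional S-phase riser, from 6.27, 6.27 and 6.02 CPM to 8.62, 8.56 and 7.38 CPM (log2 change 0.40, SE 0.110, adjusted p = 0.00533). Mcm10 changed by 0.33 (adjusted p = 5.7e-05), and Mcm5 and Tyms joined Mcm4 among those that fell. Ccnb1 went from 25.5, 26.3 and 26.4 CPM to 22.5, 20.7 and 19.1 CPM, a fall without overlap (log2 change -0.33, SE 0.063, adjusted p = 0.000163). Plk1 fell as well (log2 change -0.20, adjusted p = 0.000748). Marker sums moved without overlap from siCTRL to siCop1: fibroblast 46631 to 47124 against 39952 to 41585 CPM, heart muscle 6.62 to 110 against 3.41 to 3.68, squamous 10.7 to 17.6 against 17.7 to 86.9, other epithelial 23.3 to 28.5 against 35.2 to 36.8, and macrophage 5.02 to 6.89 against 9.75 to 13.3. Their part was not tested. The S-phase count of 11 became 7 without siCTRL DMSO replicate 1, siCop1 DMSO replicate 2 or siCop1 DMSO replicate 3, and 7 in DESeq2.

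In the presence of KL001, 14 of 30 S-phase members fell with siCop1 and 1 rose in the absence of Dexa, with a median log2 change of -0.12 (all genes -0.007), and 7 G2/M members fell and 1 rose, with a median of -0.07. The background was 14.5% of all genes higher and 18.2% lower. The siCTRL KL001 libraries of this comparison are the ones that stood high against siCTRL DMSO, so the 2 results share them. All 6 ring subunits fell. Mcm4 stood at 190, 175 and 190 CPM with siCTRL and at 143, 148 and 140 CPM with siCop1 (log2 change -0.37, SE 0.038, adjusted p = 6.11e-09). Mcm5 went from 107, 114 and 103 CPM to 86.5, 85.5 and 86.6 CPM (log2 change -0.32, SE 0.042, adjusted p = 4.14e-07). Both pairs of groups lie clearly apart. Cdt1, Gins2, Pcna, Ccne1 and E2f1 were among the others that fell, by 0.13 to 0.21 on the log2 scale. The 1 S-phase member that rose was Rrm2, from 64.6, 62.3 and 66.6 CPM to 72.9, 70.9 and 70.7 CPM (log2 change 0.15, adjusted p = 0.00228).

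The kinases Plk1 and Aurka were among the 7 G2/M genes that fell. Plk1 went from 57.2, 60.4 and 57.5 CPM to 48.4, 48.8 and 49.1 CPM (log2 change -0.26, SE 0.044, adjusted p = 3.03e-05). Birc5, the survivin subunit of the Aurora B complex, went from 34.3, 39.3 and 35.9 CPM to 30, 29.8 and 33.3 CPM, without overlap (log2 change -0.23, SE 0.057, adjusted p = 0.00217). Aurka, which drives spindle assembly, Cdc25b, Cdc20, Ccnb1 and Cenpa also fell, by 0.14 to 0.17, and Cenpf rose with overlapping groups. The Ccnb1 call was lost in 9 of 12 alternatives, among them DESeq2, and the Cenpf call in 6. The G2/M count of 8 became 5 without siCop1 KL001 replicate 2 and 4 in the fit on these 6 libraries.

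With Dexa, 10 S-phase members fell and 2 rose and 9 G2/M members fell and 1 rose, against 13.7% higher and 16.3% lower over all genes. All 10 S-phase genes that fell had also fallen without Dexa (71.4% of those 14). Among them are Mcm2 to Mcm6, Cdt1, Pcna and Ccne1, and Ccne1 went from 33.8, 32.2 and 32.9 CPM to 25.4, 30.6 and 25.6 CPM (log2 change -0.27, SE 0.057, adjusted p = 0.000372). Of the G2/M genes that fell, 6 were shared, which is 85.7% of the 7 and 66.7% of the 9. Among these 6, with Dexa, the Cdc20 call was lost in 9 of 12 alternatives, Ccnb1 in 7, Aurka in 5 and Birc5 in 2. DESeq2 was among them for Cdc20, Ccnb1 and Aurka. The Plk1 and Cenpa calls were lost in 0 of 12. Plk1 again fell by 0.27 on the log2 scale, and Top2a by 0.14 (adjusted p = 0.00879). The G2/M count of 10 became 6 without siCTRL KL001 replicate 2, 4 without siCTRL KL001 replicate 3, 5 without siCop1 KL001 replicate 1, siCop1 KL001 replicate 2 or siCop1 KL001 replicate 3, and 6 in DESeq2. With KL001, heart muscle markers summed to 7.41 to 104 CPM in siCTRL and 2.81 to 4.14 CPM in siCop1 libraries, and fibroblast markers to 39924 to 44887 and 35019 to 37331 CPM. Squamous markers without Dexa stood at 8.24 to 11.3 and 12.8 to 15.5 CPM. With Dexa, macrophage markers stood at 4.69 to 6.76 and 9.76 to 18.6 CPM and endothelial markers at 1.2 to 1.32 and 0.93 to 1.08 CPM. The part of these markers was not tested.

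**Figure D4:**
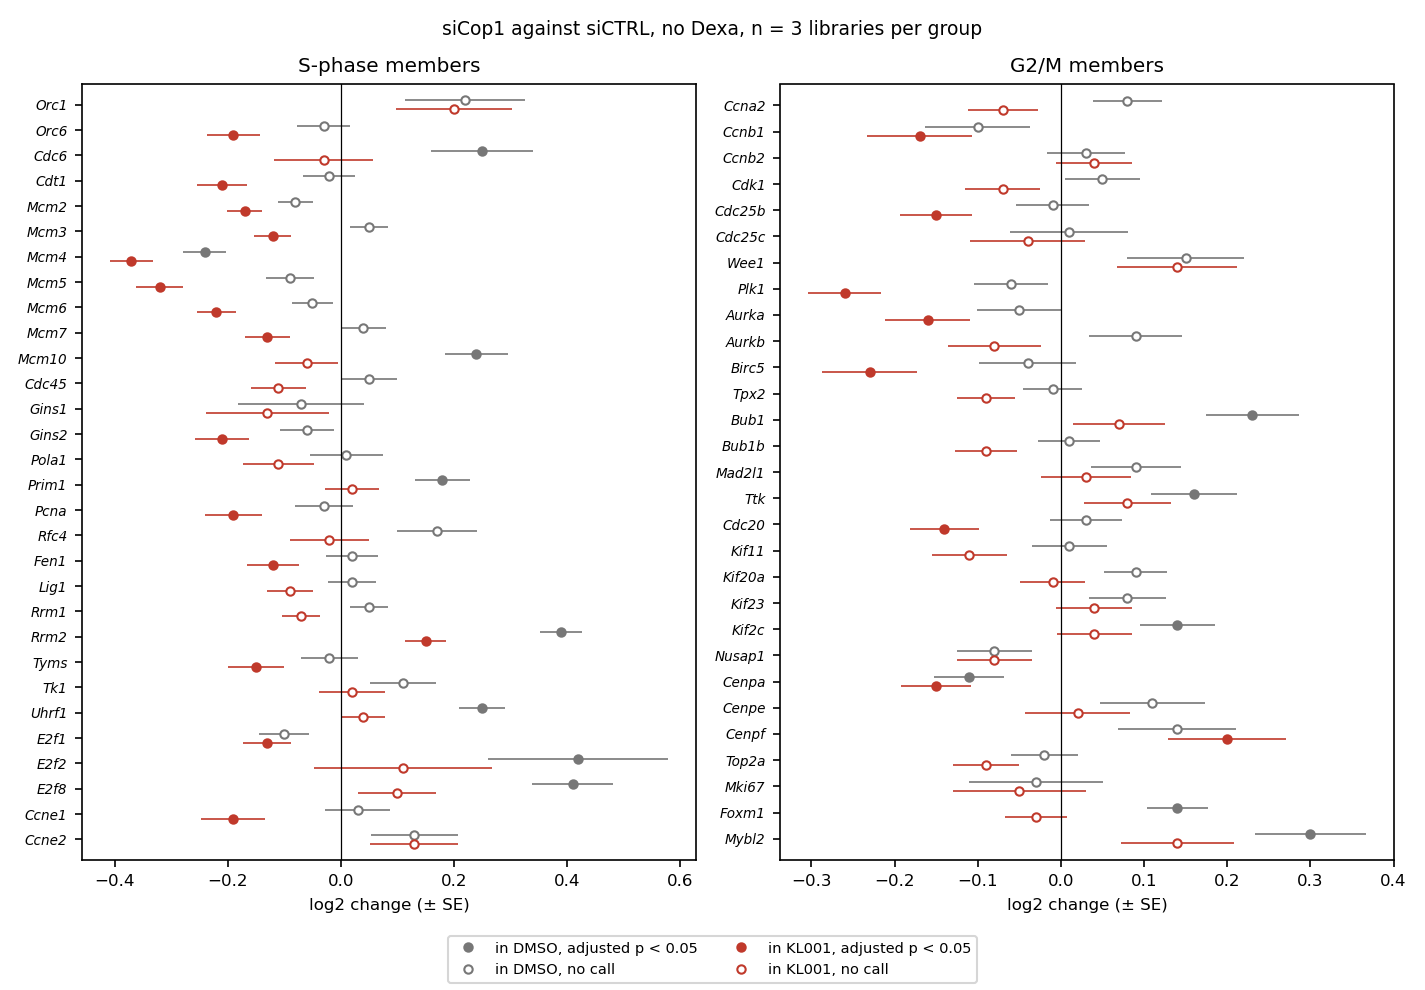
Log2 change (± SE) of each S-phase (left) and G2/M member (right) with siCop1 against siCTRL, no Dexa, in DMSO (grey) and in KL001 (red); filled points passed the adjusted p threshold. Of the S-phase members, 7 rose and 1 fell in DMSO, and 1 rose and 14 fell in KL001.

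Dexa left most members near their level but moved Wee1 further than any member moved in the siCop1 or KL001 comparisons. In siCTRL DMSO, 2 S-phase members rose and 2 fell, and 2 G2/M members rose and 4 fell, against 12.7% of all genes higher and 14.1% lower. The median log2 changes were -0.01 and -0.03. Wee1, whose product phosphorylates Cdk1 and delays mitosis, went from 14.7, 15.2 and 15 CPM to 27.8, 31.7 and 33.2 CPM. The groups are far apart, with a log2 change of 1.05 (SE 0.065, adjusted p = 8.54e-14). Wee1 also rose in siCTRL KL001 (1.04), siCop1 DMSO (0.81) and siCop1 KL001 (0.82), with adjusted p-values of 1.47e-13, 2.22e-11 and 2.94e-11. In siCop1 KL001 it went from 16.2, 14.2 and 15.5 CPM to 27.8, 27 and 26.5 CPM. The smaller rise with siCop1 did not pass when tested as an interaction (-0.23, SE 0.092, adjusted p = 0.497 in DMSO; -0.22, SE 0.095, adjusted p = 0.54 in KL001).

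Ccne2 rose in the 4 settings by 0.34 to 0.49 on the log2 scale. In siCTRL DMSO it went from 14.5, 14.5 and 15.9 CPM to 19.9, 20.1 and 20.8 CPM, without overlap (log2 change 0.44, SE 0.075, adjusted p = 3.06e-05). Its relative Ccne1 rose in siCTRL KL001 (log2 change 0.16, adjusted p = 0.0358) and did not pass in siCTRL DMSO (0.15, adjusted p = 0.0551), siCop1 DMSO (0.05) or siCop1 KL001 (0.07). None of the 4 interactions passed for it. Rrm2 rose in the 4 settings by 0.20 to 0.35, in siCTRL DMSO from 59.3, 60.5 and 55.8 CPM to 70.6, 73.1 and 73.6 CPM (SE 0.037, adjusted p = 1.01e-07). Its partner subunit Rrm1 did not pass in any of them. Foxm1 rose in all 4, by 0.10 to 0.15; the call was lost in 5 of 12 alternatives in siCTRL DMSO, in 7 of 12 in siCop1 DMSO and in 0 of 12 in both KL001 settings.

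Kif23, a kinesin of the midzone that divides the cell, fell in the 4 settings, by 0.20 to 0.25. In siCTRL DMSO it went from 69.4, 72 and 75.8 CPM to 60.6, 58.7 and 63.7 CPM (log2 change -0.25, SE 0.047, adjusted p = 0.000146), with every Dexa library below every library without Dexa. Kif2c, Kif20a, Cenpe, Mcm10 and Uhrf1 fell in 2 settings each. In siCTRL DMSO the Uhrf1 and Kif20a calls were each lost in 7 of 12 alternatives, Cenpe in 2, Mcm10 in 1 and Kif2c in 0. In siCop1 DMSO the Cenpe call was lost in 6 of 12, Mcm10 in 5 and Kif20a in 2. In siCTRL KL001 the Kif2c call was lost in 3 of 12 and the Uhrf1 call in 0. In siCTRL DMSO, Cenpe changed by -0.24 (adjusted p = 0.00653), Kif2c by -0.19 (adjusted p = 0.00191) and Mcm10 by -0.25 (adjusted p = 0.00178). None of the ring subunits Mcm2 to Mcm7 passed in any of the 4 Dexa comparisons.

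In siCTRL KL001, Dexa raised 3 and lowered 2 S-phase and raised 2 and lowered 2 G2/M members (background 12.7% and 14%). In siCop1 DMSO the counts were 2 and 1, then 2 and 4 (background 12% and 11.6%), and in siCop1 KL001 they were 2 and 1, then 2 and 1 (background 12.1% and 12.4%). Without siCTRL DMSO no Dexa replicate 1, the S-phase count of 4 in siCTRL DMSO became 7. The G2/M count of 6 in siCop1 DMSO became 3 without either the no Dexa replicate 1, the no Dexa replicate 2, the Dexa replicate 1 or the Dexa replicate 3, and the G2/M count of 3 in siCop1 KL001 became 5 without its no Dexa replicate 3. With Dexa, marker sums moved without overlap in several settings. Epithelial markers other than squamous ones went from 33.4 to 41.1 CPM down to 23.3 to 28.5 CPM in siCTRL DMSO and from 32.9 to 43.2 down to 21.2 to 32.3 CPM in siCTRL KL001. Endothelial markers went from 2.42 to 3.32 CPM down to 1.36 to 2.06 CPM in siCTRL DMSO, from 1.97 to 2.76 down to 1.2 to 1.32 CPM in siCTRL KL001 and from 1.44 to 2.16 down to 0.93 to 1.08 CPM in siCop1 KL001. Fibroblast markers went from 48045 to 50770 CPM down to 46631 to 47124 CPM in siCTRL DMSO and from 42271 to 43671 down to 39952 to 41585 CPM in siCop1 DMSO. Their part was not tested. The 4 interactions of Dexa with siRNA or compound held 0 members past the threshold by edgeR and by DESeq2, with 0 to 4 of the 59 at an unadjusted p below 0.05. Of all genes, siCop1 by Dexa had 0.67% past the threshold in DMSO and 0.562% in KL001 (7.6% and 7.67% at an unadjusted p below 0.05), and KL001 by Dexa had 0% in siCTRL and 0.0677% in siCop1 (6.01% and 4.54%).

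**Figure D5:**
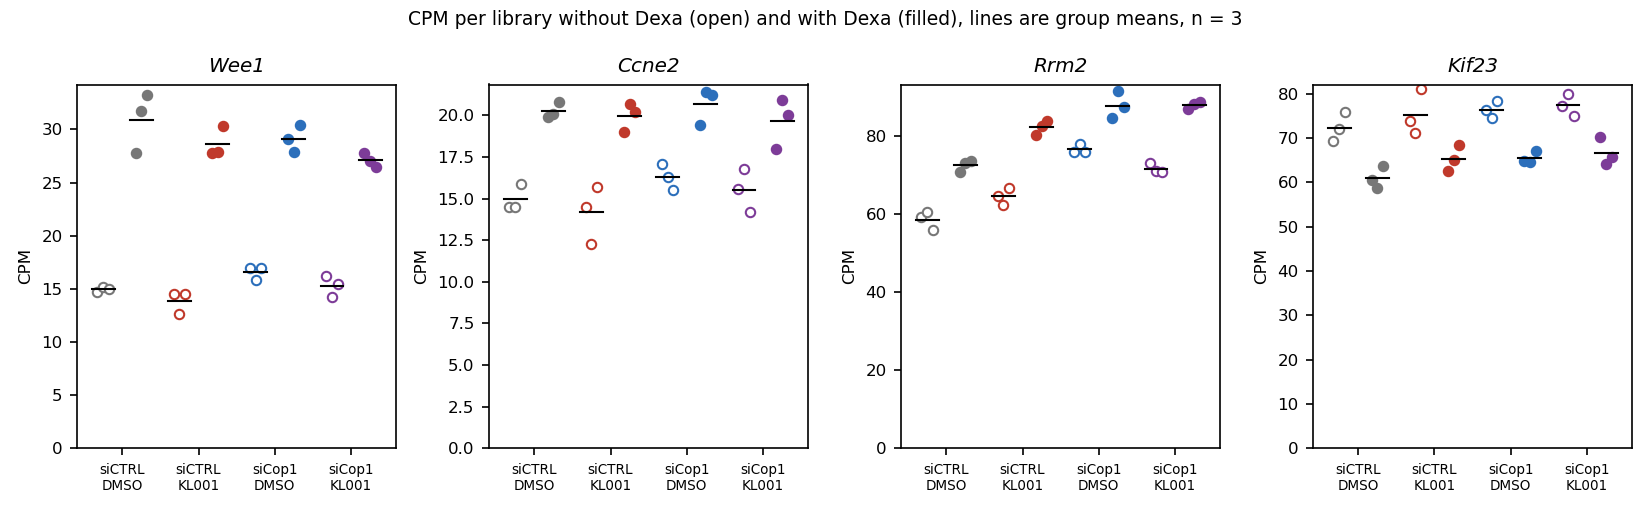
CPM of Wee1, Ccne2, Rrm2 and Kif23 in each library without Dexa (open points) and with Dexa (filled points), with group means as lines and axes that start at 0. Wee1 lies between 12.6 and 17 CPM without Dexa and between 26.5 and 33.2 CPM with it, and the Kif23 points shift downwards in each pair of groups.

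Other genes of replication and mitosis, outside the 59 members, were followed as lists of 43 each. These lists were also chosen with earlier results of these data known. In siCTRL cells KL001 raised 12 and lowered 0 of the other replication genes without Dexa, with a median log2 change of 0.13, where 3.22% of all genes rose and 3.51% fell. With Dexa it raised 17 and lowered 0, with a median of 0.14, where 4.98% of all genes rose and 5.58% fell. Without Dexa, Gmnn, the inhibitor of Cdt1, was among those that rose (log2 change 0.26, SE 0.065, adjusted p = 0.0124), as was Chaf1b, a histone chaperone (0.22). With Dexa the largest changes that passed belonged to Ticrr (0.34), Exo1 (0.32) and Hells (0.30). Of the other mitosis genes, 4 rose and 0 fell without Dexa (median 0.09) and 12 rose and 1 fell with Dexa (median 0.12). In siCop1 cells KL001 raised 2 and lowered 0 other replication genes without Dexa (Ticrr and Rpa1), where 1.77% of all genes rose and 2.32% fell. With Dexa it raised 1 (Rpa1) and lowered 0, where 2.5% rose and 2.97% fell. At an unadjusted p below 0.05, 9 other replication genes lay higher and 0 lower without Dexa, against 6.97% and 7.83% of all genes. With Dexa 5 lay higher and 0 lower, against 7.51% and 8.85%. KL001 changed 0 other mitosis genes by edgeR in siCop1 cells. Of these, 0 were at an unadjusted p below 0.05 without Dexa, and 1 was higher and 1 lower with Dexa.

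The siCop1 comparisons have a higher background: 12.8% of all genes rose and 16.6% fell in DMSO without Dexa, 14.4% and 16.7% with Dexa, 14.5% and 18.2% in KL001 without Dexa, and 13.7% and 16.3% with Dexa. Under siCop1 in KL001, 13 other replication genes fell and 0 rose without Dexa, and 14 fell and 2 rose with Dexa. Asf1b, a histone chaperone of the replication fork, had log2 changes of -0.39 and -0.52, and Rfc1, the large subunit of the clamp loader, -0.30 and -0.36. Both also fell in DMSO, Asf1b by 0.39 and 0.31 on the log2 scale and Rfc1 by 0.37 and 0.31. In DMSO 9 genes of the list rose and 3 fell in the absence of Dexa, and 10 rose and 3 fell in its presence. Of the other mitosis genes, 4 rose and 11 fell in KL001 without Dexa, and 8 rose and 2 fell in DMSO without Dexa. Dexa lowered Rfc3, a small clamp loader subunit, in the 4 settings, by 0.24 to 0.39 on the log2 scale.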

How the data were processed

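The authors deposited raw counts per gene symbol; per the submitters' processing notes the tools were bcl2fastq 1.8.4, STAR 2.4.5a, featureCounts (Subread 1.4.6-p3), Picard 1.126 and DESeq2, with GRCm38/mm10 as build. For the annotation, strand setting and treatment of shared reads: not given in the sources used here. The deposited normalized table was not used, and 0 columns of the count table were left unused. Per the labels' protocols, stranded mRNA libraries were run as single reads of 50 bases on 3 lanes, with no lane or batch named per library.

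Counts were filtered with filterByExpr (minimum count 10, minimum total 15), scaled by TMM, and tested in R 4.3.3 by the robust quasi-likelihood method of edgeR 4.0.16. The model took in the 24 libraries, with a mean for each of the 8 groups and nothing else. Adjusted p-values are two-sided and Benjamini-Hochberg adjusted over 14772 genes, for 12 simple effects and 6 interactions; "rose" and "fell" mean an adjusted p below 0.05. CPM is on the TMM scale. The fit was tested on counts simulated with the same spread per gene in the 8 groups. That test could not show how a spread that differs between groups affects the calls. Within groups, libraries differed beyond counting noise (chi-square per degree of freedom 1.57 to 8.54). The highest values were 8.54 in siCTRL KL001 without Dexa, and 5.11 and 5.54 in siCTRL DMSO without and with Dexa. In siCTRL KL001 with Dexa the values reached 2.37, and in the siCop1 groups 3.77. The model shares its estimate of the spread across the 8 groups. Library totals ran from 21409988 to 27875023 counts.

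Members and lists were chosen with earlier results of these data known. Named genes are up to 5 per class and simple effect with the largest change among those that passed without overlap, 15 fixed members, up to 3 genes of each other list (1 result is not reported here), and exceptions to small counts, the last named after their values were seen. Alternatives were RLE scaling, no filter, DESeq2 1.42.0, a fit on the groups compared, a block for the replicate number, leaving out each library and, chosen after seeing the data, an offset for length and GC content (GENCODE vM21 transcripts). Groups share replicate numbers. The deviations of same-numbered libraries correlated above 0.1 in every pair only for Dexa in siCTRL KL001 (0.16, 0.46 and 0.37) and KL001 in siCTRL with Dexa (0.17, 0.37 and 0.27), where the block left the counts at 5 and 4, and at 18 and 8.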

Additional observations from a re-analysis of the deposited data

How the results depend on the processing

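Of 157 calls of single members, 0 changed sign under any alternative. RLE scaling lost 6, the replicate block 8, the length and GC offset 14, DESeq2 26, no filter 31 and the fit on the groups compared 42. Leaving out each compared library in turn lost a call 223 times and kept it 719 times. Of 504 recomputed class medians 502 moved by less than the spread between libraries; the exceptions were in G2/M, siCop1 in KL001 without Dexa (-0.03 without siCTRL KL001 replicate 3) and siCop1 by Dexa in DMSO (-0.04 without siCTRL DMSO with Dexa replicate 1). The replicate block gave 14 S-phase genes for KL001 in siCTRL without Dexa; the block moved no count in any comparison by over 1.5 times. Counts that moved by more are these. In the fit on the groups compared, 7 S-phase genes passed for Dexa in siCop1 DMSO (3 in the fit on all libraries), 4 G2/M genes for siCop1 in KL001 without Dexa, 2 S-phase and 0 G2/M genes for KL001 in siCTRL without Dexa, 5 G2/M genes for KL001 in siCTRL with Dexa and 4 S-phase genes for KL001 in siCop1 with Dexa. With the length and GC offset, Dexa in siCop1 DMSO gave 7 S-phase and 10 G2/M genes, Dexa in siCop1 KL001 5 and 5, KL001 in siCTRL 8 G2/M genes without Dexa and 14 with Dexa, and KL001 in siCop1 with Dexa 2 S-phase genes; the siCop1 by KL001 term gave 2 S-phase genes without Dexa, and 1 S-phase and 2 G2/M genes with Dexa. DESeq2 gave 3 S-phase genes for Dexa in siCTRL KL001, 7 for siCop1 in DMSO with Dexa, 6 G2/M genes for siCop1 in KL001 with Dexa and 1 S-phase gene for the siCop1 by KL001 term without Dexa. No filter gave 3 G2/M genes for siCop1 in DMSO without Dexa and 1 S-phase and 1 G2/M gene for the siCop1 by KL001 term with Dexa. The cause was not tested.

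Leaving out 1 library gave these ranges of S-phase and then G2/M counts. Dexa: 3 to 7 and 4 to 7 in siCTRL DMSO, 4 to 6 and 3 to 5 in siCTRL KL001, 2 to 4 and 3 to 5 in siCop1 DMSO, 2 to 4 and 3 to 5 in siCop1 KL001. siCop1: 6 to 8 and 3 to 6 in DMSO without Dexa, 7 to 11 and 8 to 9 with Dexa, 11 to 16 and 5 to 8 in KL001 without Dexa, 9 to 13 and 4 to 11 with Dexa. KL001 in siCTRL: 10 to 15 and 0 to 2 without Dexa, 11 to 15 and 2 to 9 with Dexa. KL001 in siCop1 and the 6 interactions stayed at 0.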

Other observations

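The retinoblastoma and MuvB complexes hold E2F and CHR genes down in resting cells. A list of 14 genes, of these complexes and of the E2F family with its partners, included genes that passed with each treatment. With Dexa in siCTRL DMSO 3 rose and 2 fell, where 12.7% of all genes rose and 14.1% fell. E2f6, a repressor of the E2F family, rose with Dexa in the 4 settings, by 0.33 to 0.47 on the log2 scale, and in siCTRL DMSO it had an adjusted p of 5.6e-08 (edgeR). Rb1, the retinoblastoma gene itself, fell by 0.32 there (SE 0.061, adjusted p = 0.000129) and by 0.24 in siCop1 KL001 (adjusted p = 0.00278). With KL001 in siCTRL cells, Rbl2, which encodes the p130 pocket protein, fell by 0.18 without Dexa (SE 0.038, adjusted p = 0.00229) and no other gene of the list passed. With Dexa, Lin52 (0.38), Tfdp1 (0.18) and E2f4 (0.13) rose, and Rbl2 fell by 0.12 (adjusted p = 0.0381), where 4.98% of all genes rose and 5.58% fell. In siCop1 cells KL001 changed 0 of the 14 in either setting by edgeR. Of all genes, 1.77% rose and 2.32% fell there without Dexa, and 2.5% and 2.97% with Dexa, so few calls could be looked for among 14. At an unadjusted p below 0.05 there was 1 without Dexa, higher, against 6.97% of all genes higher and 7.83% lower. With Dexa there were 0, against 7.51% and 8.85%. Under siCop1, Tfdp1, the partner of E2F factors on DNA, fell in each of the 4 comparisons, by 0.10 to 0.28. Its largest fall, 0.28, was in KL001 with Dexa (SE 0.037, adjusted p = 6.5e-07). E2f4 rose in the same 4 comparisons, by 0.13 to 0.22.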
